A study of Homo sapiens with 4 samples.

Results

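The array of U87MG cells given mycophenolic acid (MPA) and guanosine together was compared, gene by gene, with the array of cells given DMSO, the solvent control. These are 2 of the 4 arrays of the study, chosen by their titles. U87MG is an established human glioblastoma line. The control cells had DMSO for 24 h, and the combined-treatment cells had 10 µM MPA and 100 µM guanosine for 24 h. The other arrays held cells with 10 µM MPA alone and cells with 100 µM guanosine alone, each for 24 h; they are used here for orientation. All conditions share 1 line in culture, and nothing in the labels gives a genotype change or separate cultures. Each condition was read on 1 array, so there are no replicates, no test is possible between conditions and no p-value is given. The question of this comparison is what still differs from untreated cells when guanosine is supplied beside MPA.

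MPA inhibits IMP dehydrogenase, which turns IMP into XMP, the committed step from inosine to guanine nucleotides. IMPDH2 is the isoform that dividing cells use most, and GTP made this way feeds ribosomal RNA synthesis in the nucleolus. Guanosine enters cells through nucleoside transporters, is cleaved to guanine by PNP and is returned to GMP by HPRT1, a salvage route that does not need IMP dehydrogenase.

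A gene was represented by 1 probe set, and a signal is the linear, normalised intensity that was deposited. Of 18132 genes with a probe set of their own, 10672 had a signal at or above 63.0, the median of all probe sets and arrays, on the control array or the combined-treatment array. That level is called the floor here. All differences are log2 of the signal with both compounds minus log2 of the control signal, and their median over the 10672 genes was 0.02. The middle 95% of genes lay between -0.30 and 0.39, with an SD across genes of 0.17. No gene differed by 2-fold in either direction by the probe set that represents it here. Other probe sets of F3 (1.07 and 1.55) and HS3ST2 (1.01) did so upwards, and the lowest of IMPDH2 did so downwards. A smaller size of 1.5-fold was passed upwards by 50 genes (0.469% of those compared) and downwards by 18 (0.169%). The nearest genes inside and outside that size were MT1X (0.59) and ZNF436-AS1 (0.58) above 0, and TPX2 (-0.60) and FAM83D (-0.58) below 0.

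Dim genes spread more widely than bright ones. The SD of the differences was 0.20 in the 2668 dimmest genes and 0.14 in the 2668 brightest. The dimmest 2668 held 21 of the 50 higher genes and 7 of the 18 lower genes. Of the 50 higher genes, 20 had another probe set at or above the floor, and the median of those others lay on the same side of 0 for all 20, at 1.5-fold for 8 of them. The same held for all 8 of the 18 lower genes that had other probe sets, 3 of them at 1.5-fold. Over all genes with other probe sets, 4283 of 6053 had such a median on the same side as their own difference. The remaining 30 higher and 10 lower genes rested on 1 probe set at or above the floor. Among those named below are SPC25, CENPE, TPX2, H2BC12, NUPR1, ANGPTL4, MOAP1, IL1B, ZNF404, CFAP96, MKRN3 and FAM117B. With the dimmer array set to the floor where it lay under it, 39 of the 50 and 13 of the 18 had a fold of at least 1.5.

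**Figure D1:**
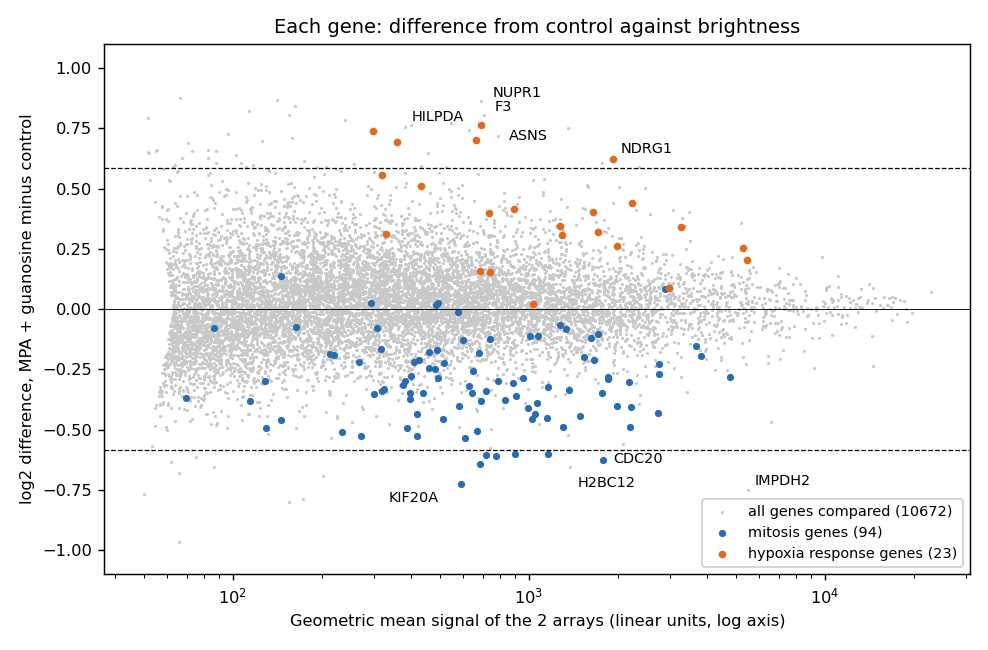
Log2 difference between the combined-treatment and control arrays for each of the 10672 genes (vertical axis) against the geometric mean signal of the 2 arrays (horizontal axis, log scale), with dashed lines at 1.5-fold. The 94 mitosis genes (blue) lie mostly below 0 and the 23 hypoxia response genes (orange) all lie above 0. No gene reaches 1 or -1 by the 1 probe set that represents it here.

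The gene for the inhibited enzyme itself was among the lowest. IMPDH2 had a signal of 7120 in the control, 9168 with MPA, 4067 with guanosine and 4228 with both compounds. Both arrays with guanosine were thus below the control, and the array with MPA alone was above it. The signal with both compounds was 1.68-fold lower than the control (log2 -0.75), and the 5 other IMPDH2 probe sets gave a median of -0.89. IMPDH1, the other isoform, stood close to the control, with 1130 in the control, 877.2 with MPA, 1148 with guanosine and 1207 with both compounds (0.09).

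The other genes of guanine nucleotide synthesis and salvage differed less than IMPDH2. GMPS, which aminates XMP to GMP, had signals of 2689 in the control, 1722 with MPA, 2423 with guanosine and 2280 with both compounds (-0.24). PNP, the phosphorylase that frees guanine from guanosine, had 710.4, 513.8, 579.2 and 621.0 in the same order (-0.19). HPRT1, the salvage enzyme for guanine, had 2541 in the control and 2604 with both compounds (0.04). The 6 genes compared had a median of -0.10, with 2 higher and 4 lower, where 54.3% of all genes were higher and 45.5% lower by any amount. IMPDH2 was the only 1 of the 6 at 1.5-fold.

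Upstream and neighbouring pathways of nucleotide supply stayed within a narrow range. The 9 de novo purine synthesis genes ran from -0.13 for PRPS2, which makes phosphoribosyl pyrophosphate, to 0.08 for PFAS, with a median of -0.05. GART, a trifunctional enzyme of the pathway, had 625.8 in the control, 359.4 with MPA, 644.4 with guanosine and 646.0 with both compounds, so the array with MPA alone was the low one. Among 8 nucleoside transporters and nucleotidases the median was 0.01, from SLC29A2 (-0.26), an equilibrative nucleoside transporter, to NT5C (0.29), a 5' nucleotidase. The 15 pyrimidine and deoxynucleotide genes had a median of -0.10 with 3 higher and 12 lower. The lowest of them, RRM2 (-0.31), TK1 (-0.26) and TYMS (-0.25), make deoxynucleotides for S phase.

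Genes of mitosis lay below the control almost throughout. They were compared in 5 lists by role, with 94 genes in all. Their median difference was -0.31 against 0.02 over all genes, 89 were lower and 5 higher, and 7 were at least 1.5-fold lower with 0 at least 1.5-fold higher (0.169% and 0.469% of all genes). Of 56 of these genes with other probe sets, 52 had the median of the others on the same side of 0. Over all genes with other probe sets, 4283 of 6053 did. The median was -0.31 with guanosine alone and -0.71 with MPA alone. All 3 of these medians use the same control array, so a deviation of that array and a difference of the treated cells cannot be told apart. In bulk RNA, fewer cells in mitosis and less of these mRNAs per cell cannot be told apart either.

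Among the genes that drive entry into mitosis, 19 of 20 cyclins, kinases and phosphatases were lower, with a median of -0.35. CCNB2, a B-type cyclin, had 1542 in the control, 889.2 with MPA, 1137 with guanosine and 1098 with both compounds (-0.49). CCNB1, the main mitotic cyclin, had 3163, 1431, 2330 and 2345 in that order (-0.43). PLK1, a kinase of mitotic entry and spindle assembly, had 154.1, 88.3, 111.7 and 109.4 (-0.49). In each of these 3 genes the control was highest, the array with MPA alone lowest and both guanosine arrays in between. AURKA, the centrosomal Aurora kinase, had 2604 in the control, 1822 with MPA, 1902 with guanosine and 1853 with both compounds (-0.49), so its 3 treated arrays lay close together. CDC25C, a phosphatase that activates CDK1, was the lowest of the list at -0.51. MASTL was the 1 gene above 0, at 0.02, which cyclic loess normalisation turned to -0.0068.

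The machinery that moves and holds chromosomes was lower by a similar amount. In the 28 kinesin, spindle and cytokinesis genes the median was -0.34, with 27 lower and 3 at least 1.5-fold lower. KIF20A, a kinesin of cytokinesis, had 757.1 in the control, 677.4 with MPA, 458.1 with guanosine and 457.5 with both compounds (-0.73, read by 1 probe set). Unlike the cyclins, its MPA array was nearer to the control than the guanosine arrays were. NUSAP1, a spindle microtubule protein, had 954.5, 751.9, 657.1 and 625.3 (-0.61), with the same order of arrays. TPX2, which activates Aurora A on the spindle, had 1104, 666.7, 780.0 and 728.4 (-0.60). KIF18B was the exception above 0, at 0.14.

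At the kinetochore, 21 of 22 genes were lower, with a median of -0.32 and 3 at least 1.5-fold lower. SPC25, a subunit of the NDC80 complex that binds microtubules, had 855.4 in the control, 422.9 with MPA, 520.9 with guanosine and 547.2 with both compounds (-0.64). CENPE, a kinetochore motor, had 886.5, 648.9, 606.9 and 582.4 (-0.61). CENPA, the centromeric histone H3 variant, had 1425, 902.6, 957.3 and 939.9 (-0.60). The control was the highest of the 4 arrays for each of these 3 and for 18 of the 22. Over all genes it was highest for 2302 of 10672. SPC24, the partner of SPC25, was at 0.02 and came to -0.016 after cyclic loess normalisation.

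The checkpoint and exit genes differed less as a group. The 12 spindle checkpoint and anaphase promotion genes had a median of -0.27, with 11 lower. CDC20, the activator of the anaphase-promoting complex, stood apart from them with 2201 in the control, 1098 with MPA, 1377 with guanosine and 1428 with both compounds (-0.62, other probe sets -0.66). UBE2C and MAD2L1 differed by -0.19 and -0.12, and BUB3 by 0.08. The 12 condensin and mitotic chromosome genes had a median of -0.24, from NCAPD2 (-0.52), a condensin subunit, to NCAPD3 (0.03, and -0.0024 after cyclic loess normalisation). MKI67, the proliferation marker, had 1149 in the control, 818.5 with MPA, 827.0 with guanosine and 863.7 with both compounds (-0.41, and -0.16 as the median over all its probe sets).

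Promoters of several of these genes are shown because mitosis genes are known to share the cell cycle homology region, at which the DREAM complex binds, often beside CCAAT boxes. Each window was taken from a promoter that holds the region, so its presence in every window was fixed by the choice. The sequences come from RefSeq promoters of GRCh38.p14, on the + strand of chr1:43358871-43358970 for CDC20, chr2:26785916-26786055 for CENPA, chr15:59105021-59105140 for CCNB2 and chr16:23678799-23678888 for PLK1. Capitals mark the cell cycle homology region (TTTGAA or TTCGAA) and CCAAT or its reverse, ATTGG.
CDC20: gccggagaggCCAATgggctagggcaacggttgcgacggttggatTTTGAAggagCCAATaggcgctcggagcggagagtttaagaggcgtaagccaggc
CENPA: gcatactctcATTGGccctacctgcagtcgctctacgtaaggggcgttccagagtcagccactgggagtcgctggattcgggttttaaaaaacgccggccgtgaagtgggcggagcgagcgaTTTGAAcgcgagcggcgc
CCNB2: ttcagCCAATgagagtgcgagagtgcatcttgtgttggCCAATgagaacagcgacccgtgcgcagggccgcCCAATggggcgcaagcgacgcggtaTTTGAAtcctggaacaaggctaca
PLK1: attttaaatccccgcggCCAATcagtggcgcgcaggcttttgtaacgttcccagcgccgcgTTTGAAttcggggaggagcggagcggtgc
In these windows the first base of the homology region lies 65 bases before the gene start in CDC20, 18 in CENPA, 29 in CCNB2 and 29 in PLK1.

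Both motifs were searched on both strands in the 250 bases before each gene start, and a gene was counted if any of its promoters held the letters. Of the 79 mitosis genes with a promoter in the table, 40 (50.6%) held the homology region, where 14% of the 8844 compared genes with a promoter did. CCAAT was present in 59 of the 79 (74.7%, against 42%), and 35 (44.3%, against 15.4%) held it 2 or more times. Both motifs occurred in 34 of the 79 (43%, against 5.62%). Among the mitosis genes at least 1.5-fold lower, CDC20, CENPA and SPC25 held the homology region. KIF20A, NUSAP1 and CENPE did not, and TPX2 had no promoter sequence here. These are matches of letters and not shown to be sites that anything binds.

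Genes of the phases before mitosis were nearer to the control. The 42 DNA replication genes had a median of -0.16, with 39 lower, 3 higher and 0 at 1.5-fold. Over all genes, 0.469% were at least 1.5-fold higher and 0.169% lower. The same list had a median of -0.95 with MPA alone and -0.15 with guanosine alone, again from the same control array. CLSPN, a fork checkpoint protein, was lowest (-0.44) with 130.8 in the control, 66.5 with MPA, 92.0 with guanosine and 96.6 with both compounds. PRIM1, the catalytic primase subunit, had 687.5, 404.7, 521.2 and 544.5 (-0.34). ORC6, an origin recognition subunit, stood at the control level, with 1024, 515.4, 1010 and 1035 (0.02). For all 3 genes the lowest array was the one with MPA alone.

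The 19 G1 genes were split, with 8 higher, 11 lower and a median of -0.07. E2F2, a factor that drives S phase genes, was lowest at -0.34 (-0.17 as the median over all its probe sets). The retinoblastoma protein gene RB1 (0.27) and the kinase inhibitor gene CDKN1B (0.24, and 0.14 as the median over all its probe sets) were highest. LIN9, a core subunit of the MuvB complex that binds the cell cycle homology region, was chosen by size and had 83.2 in the control, 24.9 with MPA, 64.9 with guanosine and 51.9 with both compounds. With both compounds it lay under the floor, which leaves a fold of at least 1.32 below the control, and its other probe set gave -0.18.

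Histone genes also had members below the control. H2BC12 had 1729 in the control, 641.8 with MPA, 1105 with guanosine and 1098 with both compounds (-0.66, and -0.26 as the median over all its probe sets), and H4C3 had 7730, 3956, 5436 and 5592 (-0.47). In both the control was highest and the array with MPA alone lowest. Of 8 replication-linked histone genes, 6 were lower, with a median of -0.30, and of 6 replacement histone genes 5 were lower, with a median of -0.09. Copies of a histone gene are near-identical in sequence, so a probe set may read more than its named copy.

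**Figure D2:**
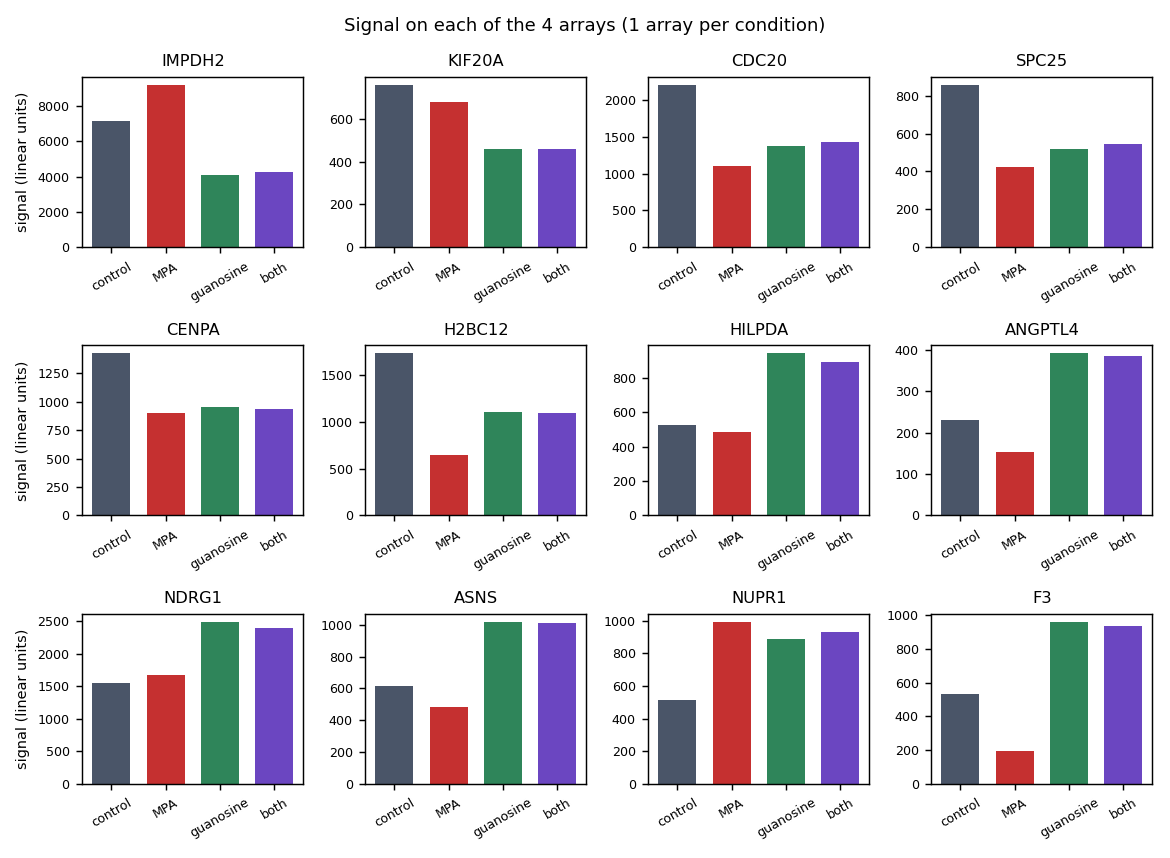
Signal in linear units on each of the 4 arrays for 12 genes, with 1 bar per array and every axis starting at 0. The bars for guanosine and for both compounds are nearly level in each gene; the mitosis genes are highest in the control, and HILPDA, ANGPTL4, NDRG1, ASNS and F3 are highest on both guanosine arrays.

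The hypoxia response had the highest median of the lists compared. Cells switch these genes on when HIF transcription factors are stable, which is usually in low oxygen, and they govern glucose uptake, glycolytic flux, lipid storage and mitochondrial removal. The enzymes of glycolysis itself were kept in a list of their own. All 23 genes compared in the hypoxia list were higher, with a median of 0.34 against 0.02 over all genes. Of these 23, 5 were at least 1.5-fold higher (0.469% of all genes). Of 16 with other probe sets, 15 had the median of the others above 0, and PFKFB3 was the exception (0.26, others -0.33). Over all genes with other probe sets, 4283 of 6053 had that median on the same side as their own difference. The list's median was 0.45 with guanosine alone and -0.13 with MPA alone, from the same control array.

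The highest members act in lipid handling and growth control. HILPDA, which blocks triglyceride breakdown at lipid droplets, had 527.5 in the control, 483.5 with MPA, 944.0 with guanosine and 895.5 with both compounds (0.76). ANGPTL4, a secreted inhibitor of lipoprotein lipase, had 230.2, 152.4, 391.4 and 384.4 (0.74). INSIG2, an ER protein that retains SREBP, had 281.1, 204.6, 466.5 and 453.9 (0.69, but 0.31 as the median of its 2 other probe sets). In all 3 genes both guanosine arrays were above the control and the array with MPA alone was below it. MXI1, a MAX partner that opposes MYC, differed from them: all 3 treated arrays were higher, with 519.1 in the control, 816.9, 882.7 and 843.7 (0.70). NDRG1, a stress-response gene induced by hypoxia, had 1549, 1672, 2490 and 2387 (0.62), but its 4 other probe sets had a median of 0.34 and none reached 1.5-fold. HILPDA was read only by probe sets that can match more than 1 gene.

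The remaining members were higher by less than 1.5-fold. DDIT4 (0.44), an inhibitor of mTORC1, had 1908 in the control, 1685 with MPA, 2748 with guanosine and 2592 with both compounds. SLC2A1 (0.40), the glucose transporter GLUT1, had 1436, 1544, 2038 and 1898 (other probe sets 0.26). VEGFA (0.25), the angiogenic growth factor, had 4851, 4424, 5754 and 5778 (other probe sets 0.13). The oxygen sensor EGLN1 (0.34), the pyruvate dehydrogenase kinase PDK1 (0.40), and the mitophagy receptor BNIP3L (0.34, other probe sets 0.21) were higher too. The collagen prolyl hydroxylases P4HA1 (0.02) and P4HA2 (0.09) stood at the bottom of the list, and P4HA1 came to -0.0038 after cyclic loess normalisation.

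The enzymes of glycolysis, compared apart from the hypoxia list, did not share its difference. The uniform direction of that list therefore describes the genes chosen for it. It does not extend to glycolysis genes that HIF may also act on. The 16 glycolysis genes had a median of 0.01, with 9 higher and 7 lower. HK2, the inducible hexokinase, was the highest, with 940.8 in the control, 1396 with MPA, 1518 with guanosine and 1319 with both compounds (0.49), so all 3 treated arrays were above the control. Its other probe set gave -0.02, and the median over its probe sets was 0.23. ENO1 (-0.06), GAPDH (-0.05) and PKM (-0.03) were below 0 and PGK1 (0.13) above it.

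Promoter stretches of ANKRD37 and INSIG2 are shown for the letters ACGTG, the core of the element that HIF binds. ANKRD37 lay at chr4:185396661-185396740 and INSIG2 at chr2:118088341-118088420, both on the + strand of GRCh38.p14 (RefSeq), and capitals mark ACGTG or its reverse, CACGT.
ANKRD37: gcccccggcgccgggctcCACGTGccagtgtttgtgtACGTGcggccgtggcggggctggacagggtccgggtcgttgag
INSIG2: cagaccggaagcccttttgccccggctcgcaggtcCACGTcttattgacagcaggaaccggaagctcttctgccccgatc
The first capitals in ANKRD37 read ACGTG on both strands and are also the E-box CACGTG, which other factors bind. ANKRD37 had 263.0 in the control, 223.9 with MPA, 403.7 with guanosine and 386.3 with both compounds (0.55). ACGTG occurred, on either strand of the 250 bases, in 13 of the 19 hypoxia genes with a promoter (68.4%), where 29.4% of the compared genes held it. The E-box form occurred in 4 of the 19 (21.1%, against 11.5%).

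Enzymes of amino acid supply were mixed, and 3 of them were well above the control. ASNS, asparagine synthetase, had 615.0 in the control, 482.5 with MPA, 1021 with guanosine and 1011 with both compounds (0.72, other probe sets 0.75). PSAT1, an aminotransferase of serine synthesis, had 1311, 967.9, 1815 and 1872 (0.51, other probe sets 0.40, and 0.20 as the median over all its probe sets). PSPH, the last enzyme of serine synthesis, had 54.2, 38.9, 82.0 and 83.7 (0.63), with its control and MPA signals under the floor, and its other probe set gave 0.22. It was higher by at least 1.33-fold. In these 3 genes the array with MPA alone was lowest and both guanosine arrays were highest. PHGDH, which opens serine synthesis, was close to the control (0.03), and SHMT2 (-0.19), a mitochondrial enzyme of folate metabolism, was lower. The list of 12 enzymes had a median of 0.12, with 8 higher and 4 lower, where 54.3% of all genes were higher.

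The integrated stress response, which turns on ASNS and PSAT1 through ATF4, was mixed. Among 12 regulators and targets the median was 0.08, and ran from 0.05 to 0.40 over the 7 alternatives of processing. Of them 8 were higher and 4 lower, where 54.3% of all genes were higher. ATF4 itself had 3026 in the control, 2270 with MPA, 3931 with guanosine and 4006 with both compounds (0.40). NUPR1, a stress-induced chromatin protein, had 511.9, 994.7, 888.5 and 932.6 (0.87), and all 3 treated arrays were above the control. VLDLR, a lipoprotein receptor, had 320.9, 155.8, 470.0 and 455.2 (0.50). CHAC1 (-0.19), a glutathione-degrading enzyme, DDIT3 (-0.11), the factor CHOP, and TRIB3 (-0.04), a pseudokinase that damps ATF4, were below 0. The 11 amino acid transporters had a median of -0.04, with 4 higher and 7 lower, and the 19 cytosolic tRNA synthetases 0.05.

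The ASNS promoter is shown for the amino acid response element, where ATF4 and C/EBP factors bind. It lay on the - strand at chr7:97872429-97872508 of GRCh38.p14 (RefSeq), and capitals mark TGATGAAA. The search took TGATG followed by AAA or CAA.
ASNS: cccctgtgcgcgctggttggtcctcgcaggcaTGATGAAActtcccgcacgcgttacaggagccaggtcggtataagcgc
Of 20 stress response and amino acid genes with a promoter, 3 held such an element on either strand of the 250 bases (15%, against 1.38% of the compared genes). They were ASNS, CHAC1 and MTHFD1L.

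**Figure D3:**
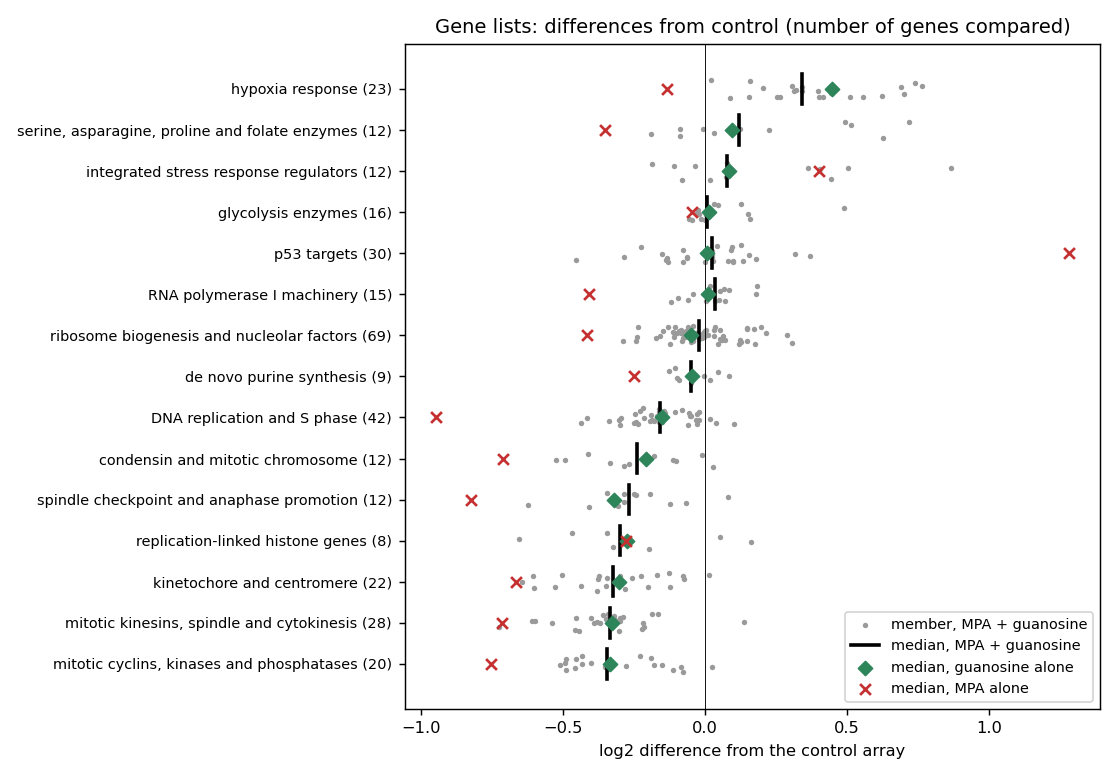
Log2 difference from the control array for the members of 15 gene lists with both compounds (grey points), with the list median for both compounds (black bar), guanosine alone (green diamond) and MPA alone (red cross). The mitosis lists sit between -0.35 and -0.24 with both compounds and hypoxia genes at 0.34; the p53 target median is 0.02 with both compounds and 1.28 with MPA alone.

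Genes of the nucleolar stress and p53 programmes stood near the control. Over 30 targets of p53 the median difference was 0.02 (as low as -0.0098 over the alternatives, and also below 0 after cyclic loess normalisation), with 18 higher and 12 lower, where MPA alone gave 1.28. GDF15, a secreted stress cytokine, had 396.8 in the control, 3917 with MPA, 350.5 with guanosine and 362.8 with both compounds (-0.13). CDKN1A, the kinase inhibitor p21, had 1649, 4961, 1373 and 1412 (-0.22), and MDM2, the ubiquitin ligase of p53, had 204.7, 446.2, 224.0 and 223.4 (0.13). GDF15 and CDKN1A were thus slightly under the control and MDM2 slightly over it, each far nearer to the control than to the MPA array. PLK2, a polo-like kinase, was furthest below (-0.45), with 262.8, 1218, 193.3 and 191.9. TP53INP1, an autophagy and death regulator, was furthest above (0.37), with 263.4, 2254, 331.9 and 340.2, but its other probe sets had a median of -0.27.

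Transcripts of ribosome production genes had list medians near 0, and production itself was not measured. The 69 ribosome biogenesis and nucleolar factors had a median of -0.02 (MPA alone -0.42), with 26 higher and 43 lower. Over all genes, 54.3% were higher and 45.5% lower. The control was the highest of the 4 arrays for 38 of the 69, and for 2302 of 10672 over all genes. Of the 69, 0 were at 1.5-fold, where 0.469% of all genes were that much higher and 0.169% lower. DKC1, the pseudouridine synthase of box H/ACA particles, was the lowest at -0.29, with 1853 in the control, 1011 with MPA, 1630 with guanosine and 1517 with both compounds. NPM1, the nucleolar chaperone nucleophosmin, had 12042, 10083, 11728 and 11552 (-0.06), and NCL, nucleolin, 7254, 5219, 7188 and 7002 (-0.05). The 15 genes of the RNA polymerase I machinery had a median of 0.03. POLR1A, its largest subunit, differed by 0.07, POLR1B by -0.04, UBTF, the promoter-binding factor, by -0.06 and RRN3, the initiation factor TIF-IA, by 0.18 (other probe sets 0.01). The 23 RNA polymerase III genes and 58 ribosomal protein genes had medians of 0.03 and 0.02.

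MYC, which drives ribosome and nucleotide genes, had 791.0 in the control, 284.2 with MPA, 827.0 with guanosine and 779.4 with both compounds (-0.02). Its network of 11 genes had a median of 0.03. Beside MXI1, the MYC antagonists MXD1 (0.36) and MNT (0.34) were higher and MXD3 (-0.42) was lower. The other probe set of MNT gave -0.17 and that of MXD3 gave -0.02.

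How far genes that differ between the MPA and guanosine arrays lay from the control was read on sets chosen on those arrays. Some of these genes differed from the control more with guanosine than with MPA. CFAP96 did so (0.85 and -0.16), as did MAP3K7CL (-0.92 and 0.26). Over the compared genes of the higher and lower sets, the medians were 1.27 and -1.12 with MPA, and -0.07 and 0.10 with guanosine. By at least 2-fold, 188 genes were higher (1.72% of those at or above the floor on either array) and 152 lower (1.39%) with MPA alone than with guanosine alone. Of the 188, 150 were at or above the floor here, and their median with both compounds was -0.01, with 73 higher and 76 lower than the control. Their extremes were MAP3K7CL (-0.79) and ZNF436-AS1 (0.58), 0 were at least 1.5-fold higher, and MAP3K7CL, IMPDH2 and ZNF425 were at least 1.5-fold lower. Of the 152 genes lower with MPA, all were compared, and their median was 0.11, with 102 above the control and 50 below. In this set 8 were at least 1.5-fold higher than the control and LIN9 alone at least 1.5-fold lower, where 0.469% and 0.169% of all genes were. The choice favours genes high on the guanosine array, which differed from the combined-treatment array by an SD of only 0.098 across genes, so these counts are a description and not an independent reading.

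The 8 genes were CFAP96, F3, BAG1, ANGPTL4, FAM117B, ASNS, INSIG2 and PSPH. F3, tissue factor, which starts blood coagulation, had 534.1 in the control, 196.6 with MPA, 961.8 with guanosine and 934.7 with both compounds (0.81, with 1.31 as the median of its other probe sets). BAG1, a co-chaperone of HSP70, had 116.7, 93.6, 191.5 and 204.2 (0.81, others 0.77). FAM117B had 74.9, 32.0, 133.8 and 124.1 (0.73), with its MPA signal under the floor. In all 3 the control lay between the array with MPA alone and both guanosine arrays. MAP3K7CL was the reverse case, with 226.4 in the control, 271.8 with MPA, 120.0 with guanosine and 131.0 with both compounds.

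**Figure D4:**
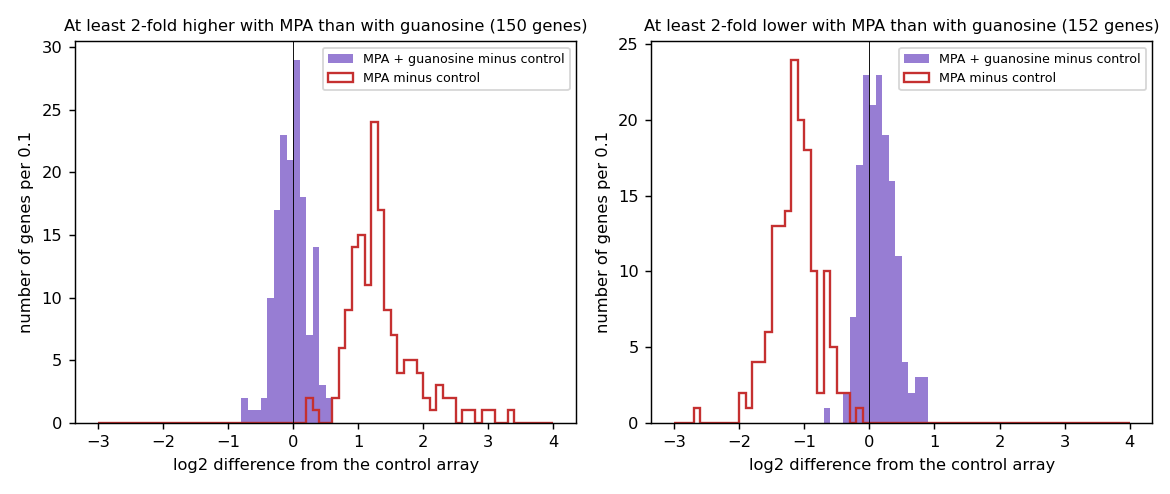
Number of genes per 0.1 of log2 difference from the control array, for the 150 genes at least 2-fold higher (left) and the 152 at least 2-fold lower (right) with MPA than with guanosine. The filled bars, both compounds minus control, centre on -0.01 and 0.11, while the outlined bars, MPA minus control, share the MPA array with the choice of genes and lie away from 0.

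The genes chosen by size alone included many that belong to none of the lists. HS3ST2, a sulfotransferase that modifies heparan sulfate, had 49.1 in the control, 80.6 with MPA, 97.8 with guanosine and 90.0 with both compounds, and its control signal under the floor made it at least 1.43-fold higher. ADAMTS5, a protease of the cartilage proteoglycan aggrecan, had 416.3, 395.0, 661.2 and 710.9 (0.77, others 0.67), and MOAP1, a promoter of apoptosis at mitochondria, had 306.3, 384.4, 485.2 and 519.7 (0.76). ADAMTS5 had its MPA array at the control level, and MOAP1 had all 3 treated arrays above it. INSYN2A (0.79, other probe set 0.94), ZNF404 (0.84), GTF2IRD2 (0.87), CFAP96 (0.82) and MKRN3 (at least 1.08-fold) were the other genes higher by size. GTF2IRD2 was read by 1 probe set that can match more than 1 gene, and it has a near-identical copy in the genome.

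Among the lower genes, HMGB3, a chromatin protein of the high mobility group, had 205.0 in the control, 78.4 with MPA, 122.4 with guanosine and 117.6 with both compounds (-0.80), but its other probe set gave -0.22. SCLT1, a centriole protein, had 92.1, 52.0, 40.5 and 47.1, at least 1.46-fold below the control, and its other probe set gave -0.08. TMEM71 (-0.69) and LNP1 (-0.66) rested on 1 probe set, as did C1QTNF2 and LRRC27, which were at least 1.04-fold and 1.22-fold lower against the floor. Apart from HMGB3 and TMEM71, these 6 genes were under the floor on at least 1 of the 4 arrays.

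Lists of signalling, lipid and stress genes had medians near that of all genes. The 18 immediate early and ERK feedback genes had a median of 0.03, and the highest, DUSP6, an ERK phosphatase, had 1695 in the control, 931.8 with MPA, 2343 with guanosine and 2410 with both compounds (0.51). Among 14 inflammatory and NF-kB targets (median 0.00), IL1B, the cytokine interleukin-1 beta, had 487.0, 555.0, 678.4 and 814.6 (0.74), and PTX3, a soluble pattern receptor, was lowest (-0.36). For IL1B the combined treatment was the highest array. The 7 genes of tissue factor and plasminogen activation had a median of 0.08, with F3 first and TFPI2, a protease inhibitor, second (0.45, other probe sets 0.20).

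The medians of the other lists were -0.04 for 18 cholesterol genes, -0.06 for 9 fatty acid genes, 0.07 for 20 lysosome and autophagy genes and 0.05 for 13 NRF2 and thioredoxin genes. They were -0.04 for 23 chaperones, -0.02 for 23 interferon-stimulated genes, 0.02 for 22 matrix and TGF-beta genes and -0.07 for 10 tubulins. None of the genes in these 8 lists was 1.5-fold from the control. Over all genes, 0.469% were that much higher and 0.169% that much lower. At such small shares the absence is no result about these genes. The furthest members were NPC1 (0.38), the lysosomal cholesterol exporter, IFITM1 (-0.35), an antiviral membrane protein, and NEU1 (-0.32), a lysosomal sialidase.

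Of 12 mesenchymal and stem-like glioma markers, 7 were at or above the floor, OLIG2 among them, and no glioma subtype is read from them. CD44, VIM and CHI3L1 had control signals of 6286, 19783 and 1201, and 5938, 19584 and 1192 with both compounds, whereas 5 of the 12 markers with a probe set, SOX2 among them, were under the floor on both arrays. Of 10 astrocyte markers, 7 were at or above the floor, with 3 higher and 4 lower and a median of -0.05. Their summed signal was 5128 in the control and 5542 with both compounds. GFAP, the astrocyte filament, was the lowest of them, faint at 87.8 in the control, and differed by -0.23. GLUL was the highest, at 0.25. Of markers of other cells, 3 of 10 for leukocytes, 2 of 8 for epithelium, 6 of 9 for endothelium and pericytes and 5 of 9 for neurons and oligodendrocytes were at or above the floor, while PTPRC, CD3E, EPCAM and PECAM1 were under the floor. Over the compared markers, the summed signal in the control and with both compounds was 1441 and 1539 for leukocyte genes, 195.3 and 155.7 for epithelial genes, 714.6 and 769.0 for endothelial and pericyte genes, and 3203 and 3084 for neuron and oligodendrocyte genes. CD68, a lysosomal gene that is not limited to leukocytes, gave 1200 of the leukocyte sum in the control.

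Control probe sets differed between the 2 arrays too. The poly-A spike-ins, bacterial RNAs that labelling kits add to the sample, were higher with both compounds in 12 of 12 probe sets, by a median of 0.27. Against the same control array that median was 0.22 with guanosine alone (12 of 12 higher) and -0.29 with MPA alone (0 of 12 higher). The hybridisation spike-ins, added later, differed by -0.02 with both compounds. For the 3 probe sets of 28S ribosomal RNA the median difference with both compounds was -0.79, from -1.03 to -0.04. It was -0.76 with guanosine alone and -0.51 with MPA alone. The 3' minus 5' difference was 0.13 in the control and 0.11 with both compounds for GAPDH, and 1.82 and 1.89 for ACTB. The part of these shifts in any gene's difference was not tested.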

How the data were processed

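Total RNA of U87MG cells was read on Affymetrix PrimeView arrays, 1 per condition. The authors deposited RMA intensity values, per the labels' descriptions, which the range of the values shows to be linear; the sources used here give no software, version or settings. RMA aligns the distributions of all arrays, so a change shared by all mRNA is not visible. The platform annotation gave a single symbol for 44994 of 49395 probe sets, several for 1832 and no entry for 2569; 102 probe sets are controls, and 44967 matched RefSeq by Entrez identifier, which altered 0 symbols. The probe set with the highest mean log2 signal represented a gene, leaving out those that end in _x_at unless a gene had no other (601 genes).

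Genes named by size are the 12 highest and 12 lowest differences past 1.5-fold whose other probe sets had a median of the same sign (genes with no other probe set qualified), and in each list the extremes and up to 3 more on each side. Genes of purine supply, the nucleolus and p53 were always included. Any further gene was chosen with its values in view, after they were seen. The members and the 36 gene lists and 6 marker lists were chosen with earlier results of these data known. With 1 array a condition, the number of arrays limits the precision, and no spread between cultures could be measured. The 7 alternatives were another dim filter or none, other choices of probe set, cyclic loess and a pseudocount of 16. The counting was tested on simulated data. Python 3.11.15, pandas 2.3.3, numpy 2.4.6, R 4.3.3 and limma 3.58.1 were used.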

Additional observations from a re-analysis of the deposited data

Results flagged for a closer look

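The poly-A spike-in probe sets, which lie outside the comparison of genes, had a median log2 difference of 0.27 between the combined-treatment and the control array, with 12 of 12 higher. The 3 probe sets for 18S ribosomal RNA had a median difference of 0.085, with 3 of 3 higher. Both are listed because a signal in control probe sets stood above its level on the control array. Other control probe sets were lower. Those of 28S ribosomal RNA had a median of -0.79, with 0 of 3 higher. Background probe sets rich in G and C had a median of -0.15, with 0 of 6 higher, and the remaining background probe sets 0.03, with 9 of 17 higher.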

How the results depend on the processing

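The count of genes at least 1.5-fold lower, 18, came to 29 with no filter on dim genes, 10 with the floor at the 75th percentile and 10 with the median over each gene's probe sets; that of higher genes, 50, came to 22 with the floor at the 75th percentile and 26 with a pseudocount of 16. Over the 7 alternatives the mitosis median ran from -0.34 to -0.30 and the hypoxia median from 0.31 to 0.40. Some smaller lists ran more widely. The stress response median ran from 0.05 to 0.40 and that of replication-linked histones from -0.47 to -0.17. The MYC network median ran from 0.003 to 0.20 and that of tissue factor and plasminogen activation from 0.05 to 0.29. Of 43 list medians, 32 had 1 sign throughout. Past a tolerance of 0.098, the SD across genes between the guanosine and combined-treatment arrays, 12 of 300 list values moved and 3 reversed: the leukocyte median to 0.14 with the floor at the 75th percentile and to 0.012 with the median of probe sets, and the endothelial and pericyte median to -0.11 with the latter. Of the 35 named genes past 1.5-fold, 0 changed sign, which was partly fixed in advance. Those named by size needed other probe sets, where present, with a median of the same sign. The filters on dim genes and on direction cannot alter a gene's own value. Of the 253 named genes past the tolerance, 20 changed sign under at least 1 alternative, each of them another choice of probe set, such as POLH from 0.31 to -0.25 and UCK1 from 0.16 to -0.32. The causes were not tested. No paired analysis was possible because each condition has 1 array, so leaving out an array leaves no comparison. A signal near the floor limits what a difference in a dim gene can show.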
